A study of Mus musculus with 20 samples.

Results

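The comparison described here set aortas of mice with a P465L mutation of PPARγ against aortas of their wild-type littermates. Its members were chosen by the arrays' labels: 3 P465L arrays and 3 wild-type littermate arrays, each with replicates A, B and C, or 6 of the 20 arrays in the series. The P465L mice carried a targeted knock-in mutation, which the labels describe as giving a dominant negative form of the receptor, equivalent to a mutation described in human patients. A knock-in sits in the gene's own locus, so it is not limited to 1 cell type by a transgene promoter, and other tissues of these mice carried the mutation too. Both groups were adult and ate standard chow. Whether the mice carried the mutation on 1 or both alleles, and their exact age, sex and strain background, are not stated in the sources used here. The aorta was taken as a whole vessel, and each array held RNA pooled from 8 aortas, so each replicate is a pool of animals. The remaining 14 arrays come from a separate experiment in C57BL/6J mice: 3 chow controls, and 11 arrays from mice fed rosiglitazone, at a daily dose of 3 or 10 mg/kg and for either 2 or 14 days. They entered the same statistical fit and serve below to set the mutation beside activation of the receptor. The design thus asks what interference with PPARγ does to the vessel's messenger RNA.

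PPARγ is a nuclear receptor that binds fatty acids and thiazolidinedione drugs such as rosiglitazone, pairs with the retinoid X receptor RXR, and switches on genes of lipid uptake, storage and oxidation. It is the main driver of fat cell development, and in the vessel it is also present in endothelial and smooth muscle cells, where it takes part in the control of vascular tone. The mouse aorta is surrounded by perivascular fat, which around the chest portion of the vessel resembles brown fat, the heat-producing fat that burns fatty acids through uncoupling protein 1.

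Values are log2 of the array signal plus 72, and a gene is represented by its brightest probe set. The 6 arrays had the same trimmed mean signal, their median signals ranged from 344.7 to 370.6, and their ratio of 3' to 5' signal for Actb ranged from 1.17 to 1.22. The same ratio for Gapdh ranged from 0.80 to 0.93, with P465L B highest and P465L C next at 0.85. All 8 smooth muscle cell markers and all 17 endothelial markers on the list were bright enough to test, as the tissue label requires. Markers of fat, skeletal muscle, liver and blood were measured as well, and 2 libraries stood apart in them. Wild-type littermate B was the highest of the 6 arrays in the mean of the skeletal muscle markers (12.78, against 9.31 to 12.20 on the other 5), the liver plasma protein genes (11.37, against 8.49 to 10.91) and the red blood cell markers (15.13, against 13.11 to 13.48). P465L A lay apart from P465L B and C, with a skeletal muscle mean of 12.20 against 10.04 and 9.31, and a mean of the defining fat cell markers of 13.85 against 13.24 and 12.76. In such whole-vessel pools fewer cells of a type and less RNA per cell cannot be told apart. The p-values measure the spread between pools.

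Few single genes separated P465L from littermate aortas at the precision of 3 arrays a group, and the clearest was Elovl3. Elovl3 elongates very long chain fatty acids and is characteristic of active brown fat. Its log2 signal was 11.66, 11.97 and 10.72 in wild-type littermates A, B and C, and 9.79, 8.99 and 8.54 in P465L A, B and C. The lowest littermate array lay above the highest P465L array. Elovl3 fell by 2.35 log2 units (SE 0.34; adjusted p = 0.00870 by limma with Benjamini-Hochberg adjustment), so that the level in littermates was 5.08 times that in P465L aortas. The call was lost without wild-type littermate A (adjusted p = 0.0617), wild-type littermate B (0.143), P465L B (0.0851) or P465L C (0.0934), and with only the 6 arrays in the fit (0.205), while the log2 difference stayed between -2.71 and -1.97 over all 22 alternative settings.

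The other call was Map3k12, the dual leucine zipper kinase of stress signalling, which is best known in neurons. It measured 10.57, 10.33 and 10.55 in littermates A, B and C and 11.30, 11.35 and 11.81 in P465L A, B and C, again without overlap. Its mean in chow controls, 11.13, lay between those of littermates (10.48) and P465L (11.49). Map3k12 rose by 1.0 log2 units (SE 0.17; adjusted p = 0.0327), a 2.00-fold difference. This value belongs to 1 of its 4 probe sets: the other probe set bright enough to test differed by 0.17, and the dimmer ones by 0.86 and -0.39. With the mean of the gene's probe sets the difference was 0.41 (adjusted p = 0.789), and the call was lost in 13 of 22 alternative settings. Among these, the adjusted p was 0.0830, 0.400 and 0.124 without wild-type littermates A, B and C, 0.0851 and 0.336 without P465L B and C, and 0.0547 without chow B.

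Elovl3 and Map3k12 were the only calls among 11081 genes at an adjusted p under 0.05, or 0.018% of the genes tested (0.00902% lower and 0.00902% higher). In all, 823 genes had an unadjusted p under 0.05 (7.43%), of which 426 were higher in P465L (3.84%) and 397 lower (3.58%). Arrays of the groups did not overlap for 815 genes that were higher in P465L (7.35%) and 775 that were lower (6.99%), and the median difference of all genes was 0.01. Of 3130 probe sets that name no gene or several, limma called 0 (0.0%), and 189 had an unadjusted p under 0.05 (6.04%). Behind the calls, the smallest unadjusted p-values belonged to Alb and Cyp2f2, described below, to Rpgrip1, a scaffold protein of the cilium (0.63, adjusted p = 0.278), and to Ptcd1, a mitochondrial RNA-binding protein (0.72, adjusted p = 0.341), whose other probe set differed by -0.26. Isg20l2, an exonuclease of ribosome maturation, differed by 0.45, Hpf1, a cofactor of ADP-ribosylation, by 0.50 and Phyhipl by 1.02, each with an adjusted p of 0.341. Dimmer probe sets, below the tested level, differed by -0.61 for Phyhipl and by 0.46, -0.30 and -0.23 for Rpgrip1. On the lower side were Ndufa4l2, a mitochondrial protein related to a respiratory chain subunit (-0.69, adjusted p = 0.388), and Rrp15, a protein of ribosome production (-0.77, adjusted p = 0.341). None of these passed the threshold, and the arrays of the groups did not overlap for any of them. Littermate means were also below those of chow controls for Rpgrip1 (12.01 and 12.93), Ptcd1 (8.76 and 9.57) and Isg20l2 (10.74 and 11.26). P465L means of these genes were 12.64, 9.48 and 11.18.

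**Figure D1:**
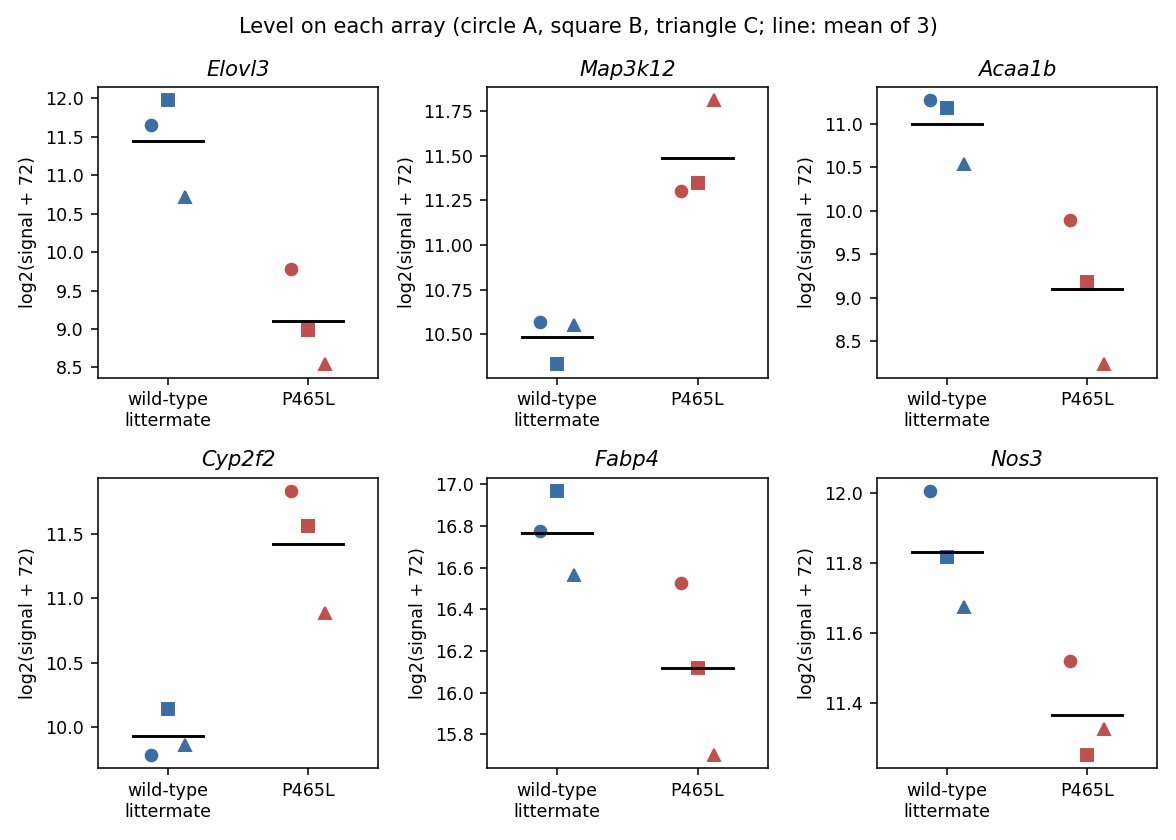
Log2(signal + 72) of Elovl3, Map3k12, Acaa1b, Cyp2f2, Fabp4 and Nos3 on each array (points: circle A, square B, triangle C; lines: mean of 3 arrays), wild-type littermates in blue and P465L in red; each panel has its own vertical scale. The groups do not overlap in any panel, but only Elovl3 (-2.35) and Map3k12 (1.0) passed the adjusted threshold.

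Of the receptors themselves, Pparg did not differ beyond its spread. It measured 11.45, 11.04 and 10.74 in littermates A, B and C and 11.74, 11.02 and 10.26 in P465L A, B and C. The groups overlapped fully, with a log2 difference of -0.07 (SE 0.39, adjusted p = 0.981). The mutation changes 1 amino acid, so the amount of Pparg messenger RNA neither checks the genotype nor shows how well the protein works. Ppara, the related receptor of fatty acid oxidation, measured 11.50, 11.34 and 10.78 against 11.17, 10.35 and 9.82, a difference of -0.76 (SE 0.33, adjusted p = 0.647), with overlapping groups. Its 2 other probe sets differed by -0.72 and -0.41. Rxrb, a partner receptor, differed by -0.33 without overlap (adjusted p = 0.709) and Rxra by -0.15 with overlap (adjusted p = 0.816). Hdac3, the histone deacetylase of the corepressor complex, differed by -0.26 and Cebpd, a transcription factor of early fat cell development, by -0.27, both without overlap and with adjusted p-values of 0.646 and 0.673. The other probe set of Cebpd differed by 0.15. Over the 25 receptors and coregulators tested, 13 were lower and 12 higher, 0 were called, and the median was -0.01. Groups did not overlap for 3 lower members (12%, against 6.99% of all genes) and 1 higher member (4%, against 7.35%).

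The target genes of PPARs in lipid handling stood lower in P465L almost throughout. Of 40 genes on the list, 34 were on the array under a single symbol and all of these were tested: 32 were lower in P465L and 2 higher, 0 were called, and the median was -0.52 against 0.01 over all genes. Groups did not overlap for 6 lower members (17.6%, against 6.99% of all genes) and 1 higher member (2.94%, against 7.35%). Because list, members and test share these 6 arrays and the members vary together, these counts are a description. The mean log2 level of the 34 targets was 13.01, 13.16 and 12.60 in littermates A, B and C and 12.91, 12.23 and 11.90 in P465L A, B and C. P465L B and C lay below all littermates, whereas P465L A lay between littermates A and C. Without P465L A the median of the targets was -0.82, and without P465L C it was -0.33.

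Among the uptake and transport proteins, Slc27a2, a fatty acid transporter and acyl-CoA synthetase, measured 10.84, 11.34 and 10.38 in littermates A, B and C and 10.17, 8.82 and 8.49 in P465L A, B and C. The groups did not overlap, with a difference of -1.69 (SE 0.54, adjusted p = 0.514). Fabp4, which carries fatty acids inside fat cells, measured 16.77, 16.97 and 16.56 against 16.53, 16.12 and 15.70, a difference of -0.65 (SE 0.21, adjusted p = 0.521). The highest P465L array was just under the lowest littermate array, and the 3 other Fabp4 probe sets differed by -0.57, -0.41 and -0.44. The fatty acid translocase Cd36 measured 14.12, 14.33 and 13.34 against 13.92, 13.08 and 12.71, with overlap and a difference of -0.70 (adjusted p = 0.661). Aqp7, the glycerol channel of fat cells, differed by -0.79 (adjusted p = 0.652). Lpl, the lipase that frees fatty acids from lipoproteins, measured 15.38, 15.94 and 14.99 against 15.90, 15.38 and 14.66 and overlapped fully (-0.12, SE 0.30, adjusted p = 0.937).

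Among the enzymes of oxidation, Acaa1b, a peroxisomal thiolase, measured 11.27, 11.18 and 10.54 in littermates A, B and C and 9.89, 9.18 and 8.23 in P465L A, B and C. Every P465L array was below every littermate array, with a difference of -1.90 (SE 0.46), which missed the threshold (adjusted p = 0.341). Acaa1a, a close copy of this gene chosen for mention after its values were seen, differed by -0.23 (adjusted p = 0.683), and how far the probe sets tell the copies apart was not tested. Acads, the short chain acyl-CoA dehydrogenase, measured 11.75, 11.84 and 11.36 against 11.22, 10.88 and 10.40 without overlap (-0.82, SE 0.25, adjusted p = 0.496). Cpt1a, which brings fatty acids into mitochondria outside muscle and brown fat, went the other way, with 12.62, 12.69 and 12.83 in littermates and 12.96, 12.91 and 13.15 in P465L (0.29, SE 0.10, adjusted p = 0.616). Its groups did not overlap and its 2 other probe sets differed by 0.33 and 0.62. Pdk4, the kinase that restrains pyruvate use, differed by -0.36 (adjusted p = 0.825), and Angptl4, the secreted lipase inhibitor, by -0.20 (adjusted p = 0.889).

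Brown fat genes showed the largest list median of the lipid groups. Of 20 brown adipocyte markers, 16 were tested: 13 were lower and 3 higher, 1 was called (Elovl3, against 0.00902% of all genes called lower), 2 were lower without overlap (12.5%, against 6.99% of all genes), and the median was -0.66. Ucp1, the uncoupling protein that defines brown fat, measured 15.48, 15.98 and 14.79 in littermates A, B and C and 15.39, 14.46 and 13.43 in P465L A, B and C. P465L B and C were below all littermates and P465L A was just below littermate A, so the difference of -1.0 (SE 0.46) was within the spread (adjusted p = 0.663). Cox8b, a cytochrome oxidase subunit of brown fat and muscle, differed by -1.23 (SE 0.42, adjusted p = 0.616), and Cidea, a lipid droplet protein of brown fat, by -1.01 (SE 0.38, adjusted p = 0.634). Ucp3, a related uncoupling protein, measured 9.98, 10.33 and 9.97 against 9.93, 9.27 and 9.12 without overlap (-0.65, adjusted p = 0.646), and its other bright probe set differed by -1.27.

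General fat cell genes gave smaller differences in the same direction. Of 21 adipocyte markers tested, 17 were lower and 4 higher, 0 were called, and the median was -0.35. Groups did not overlap for 0 lower members and 1 higher member (4.76%), against 6.99% and 7.35% of all genes. Adipoq, the fat cell hormone adiponectin, measured 15.51, 15.96 and 15.23 in littermates A, B and C and 15.74, 15.01 and 14.69 in P465L A, B and C (-0.42, SE 0.31, adjusted p = 0.757). P465L A was again among the littermates. Without P465L A the median of the adipocyte markers was -0.67 and that of the brown adipocyte markers -1.03, and without P465L C they were -0.12 and -0.34. Without wild-type littermate B they were -0.22 and -0.42. With the mean of probe sets the median of the adipocyte markers was -0.16. Of 24 genes of fatty acid and triglyceride synthesis, 22 were lower and 2 higher. Without overlap were 0 genes, against 6.99% of all genes lower and 7.35% higher, and the median was -0.27. This median was -0.53 without P465L A, -0.46 without wild-type littermate C, -0.18 and -0.14 without wild-type littermates A and B, and -0.041 without P465L C. It was -0.17 with the mean of probe sets. The examples with the smallest p-values were Agpat2, an acyltransferase of triglyceride synthesis (14.76, 14.95 and 14.05 against 14.40, 13.33 and 12.75, a difference of -1.09, adjusted p = 0.494), and Gpd1, which supplies the glycerol backbone (-1.18, adjusted p = 0.625). Other Gpd1 probe sets bright enough to test differed by -1.38 and 0.87. Fasn, the fatty acid synthase, differed by -0.57 (adjusted p = 0.673). Of 17 genes of lipolysis and the lipid droplet, 15 were lower and 2 higher with a median of -0.35 (-0.22 without wild-type littermate B and -0.16 without P465L C), among them the droplet protein Plin5 (-0.95), the droplet protein Cidec (-0.64) and the hormone-sensitive lipase Lipe (-0.79). The groups overlapped for all 17, whereas 6.99% of all genes were lower and 7.35% higher without overlap.

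The mitochondrial genes followed. Of 20 genes of fatty acid beta oxidation tested, 19 were lower and 1 was higher, and the median was -0.53. Groups did not overlap for 1 gene in each direction, Acads and Cpt1a. That is 5% lower and 5% higher, against 6.99% and 7.35% of all genes. Eci1, an enoyl-CoA isomerase, differed by -0.73 (adjusted p = 0.646) and Decr1, a dienoyl-CoA reductase, by -0.69 (adjusted p = 0.634). Of 50 subunits and carriers of oxidative phosphorylation tested, 45 were lower and 5 higher. These genes are bright: 45 of the 50 lay in the highest 10% of levels, where 62.5% of all genes were lower in P465L. In the highest 2%, which held 16 of the 50, 89.2% of all genes were lower. Without overlap were 0 members, against 6.99% of all genes lower and 7.35% higher, and the median was -0.26. Without P465L A this median was -0.41 and without P465L C -0.16. Uqcrfs1, the iron-sulfur subunit of complex III, measured 14.34, 14.59 and 13.82 against 14.24, 13.19 and 13.10 (-0.74, adjusted p = 0.625), and Cycs, cytochrome c, differed by -0.48 (adjusted p = 0.641). P465L A lay within the range of the littermates in both.

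The medians of these lipid and mitochondrial lists kept their sign in all 22 alternative settings, with the fat content of the pools moving alongside. The score made from 6 defining fat cell markers was 13.71, 13.88 and 13.36 in littermates A, B and C and 13.85, 13.24 and 12.76 in P465L A, B and C. Of these 6 markers, out of 8 on the list, 5 were lower and 1 higher, with a median of -0.40, and 1 further marker was below the tested level. With the score as a covariate, an alternative added after the data were seen, the median of the PPAR targets was -0.22, that of the brown adipocyte markers -0.20, that of beta oxidation -0.27 and that of oxidative phosphorylation -0.10. With the same covariate Elovl3 stayed called (-1.97, adjusted p = 1.83e-05), Acaa1b became called (-1.33, adjusted p = 0.000626), and Ucp1 differed by -0.47 (adjusted p = 0.914). Several markers in the score, Adipoq among them, are targets of PPARγ, so the score is not independent of the mutation, and fat content and genotype cannot be told apart in these pools.

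**Figure D2:**
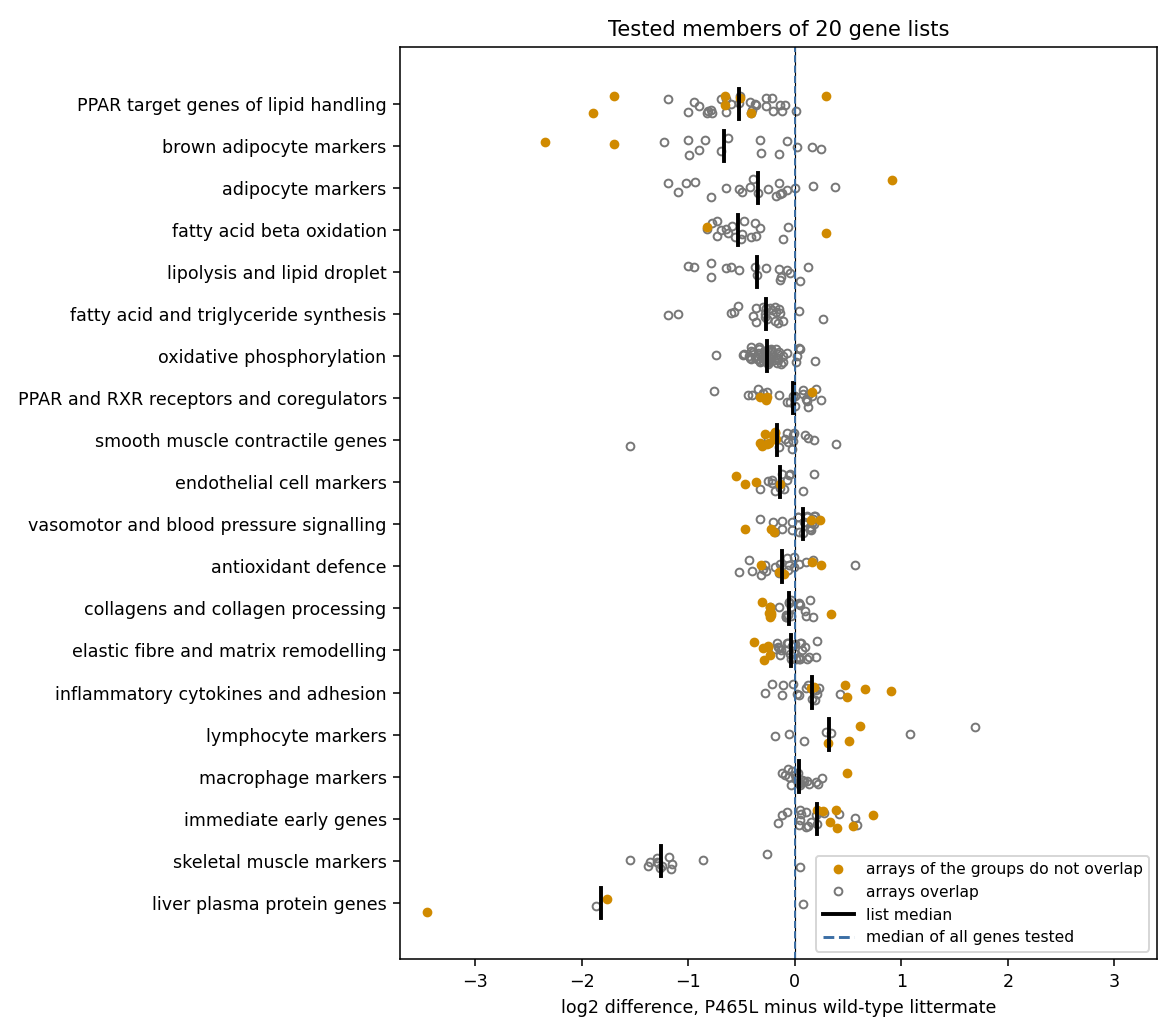
Log2 difference (P465L minus wild-type littermate) of every tested member of 20 gene lists; orange points are genes whose arrays do not overlap between groups, open points overlap, black bars are list medians and the dashed line is the median of all genes (0.01). Lipid and mitochondrial lists lie to the left, with medians from -0.66 to -0.26, while inflammatory (0.17) and immediate early genes (0.21) lie slightly to the right. Skeletal muscle markers (-1.25) and liver plasma protein genes (-1.81) lie farther left than the lipid lists.

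Markers of other tissues also varied between the arrays. In the mean of the skeletal muscle markers P465L A (12.20) lay among the littermates (10.75 to 12.78). In that of the liver plasma protein genes it lay below them all (9.59 against 9.79 to 11.37). Of 14 skeletal muscle markers tested, 13 were lower in P465L. Without overlap were 0 of them (against 6.99% of all genes lower and 7.35% higher), and the median was -1.25. This median was -2.19 without P465L A, and -0.53 and -0.54 without wild-type littermate B and P465L C. Ckm, the creatine kinase of muscle, measured 11.36, 13.02 and 10.92 in littermates and 12.38, 9.57 and 8.72 in P465L. Liver plasma protein genes were mostly too dim, with 4 of 13 on the array tested, and 3 of these were lower. Alb, the serum albumin of liver, measured 9.54, 12.11 and 11.32 against 8.66, 6.63 and 7.32, a difference of -3.45 without overlap (SE 0.64, adjusted p = 0.106). Apoa2, a lipoprotein component made by liver, differed by -1.77 and Ttr, a thyroid hormone carrier, by -1.86. The other tested member, the liver protease inhibitor Serpina1b, differed by 0.07, and by 0.30 at its other probe set bright enough to test. Serpina1c, a close copy that is not on the list, differed by -2.61, and how far the probe sets tell these copies apart was not tested. Their part in the differences of the lipid and mitochondrial genes was not tested.

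**Figure D3:**
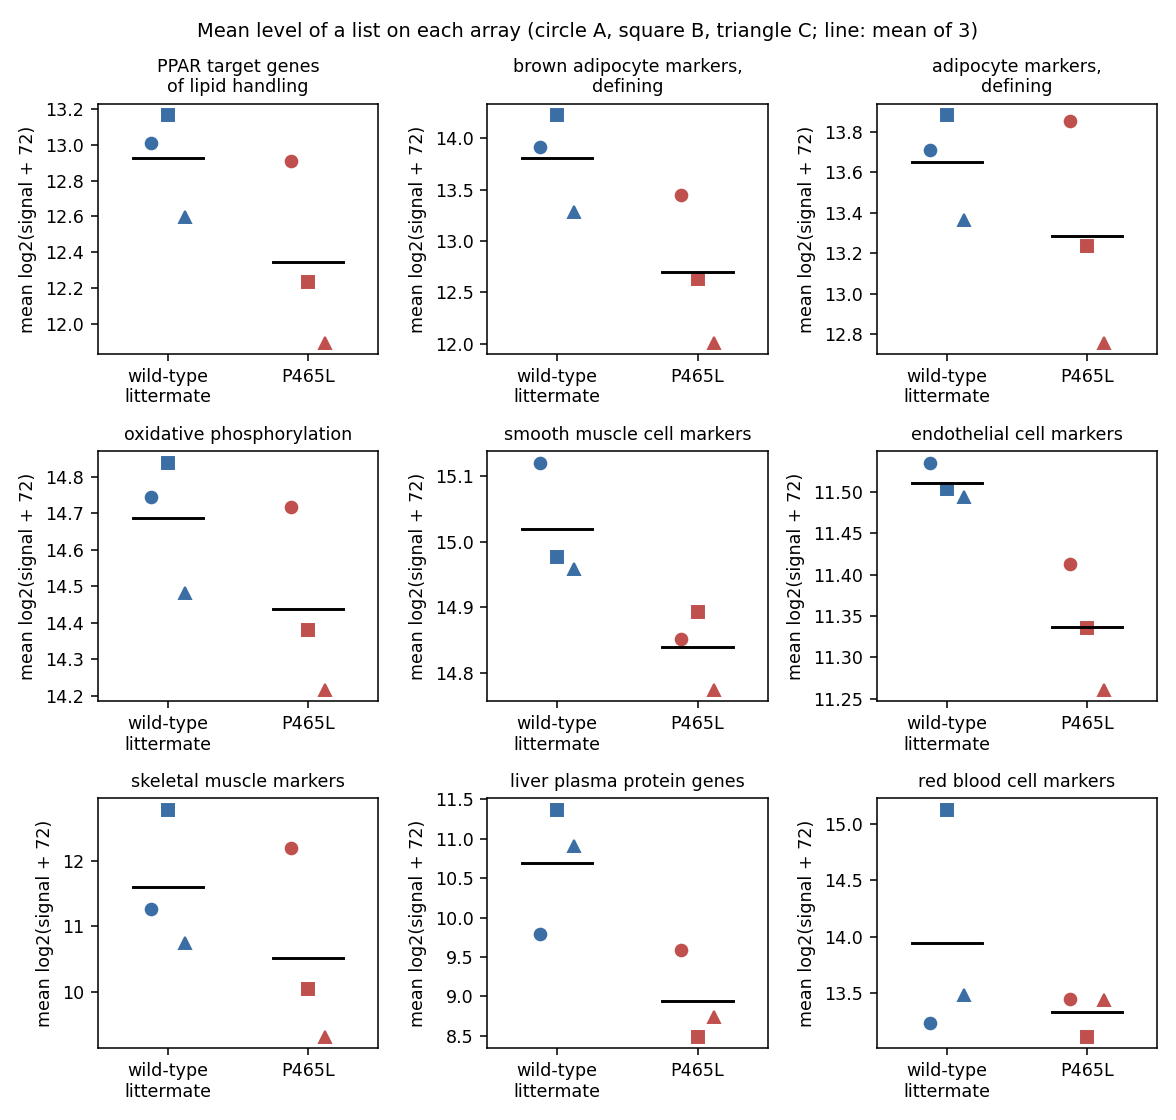
Mean log2(signal + 72) of the tested members of 9 lists on each array (circle A, square B, triangle C; lines: mean of 3 arrays), wild-type littermates in blue and P465L in red; each panel has its own vertical scale. P465L A lies among the littermates for PPAR targets (12.91) and fat cell markers (13.85). Wild-type littermate B is the highest array for muscle (12.78), liver (11.37) and blood (15.13) markers. The groups separate for smooth muscle, endothelial and liver markers. Of the 8 smooth muscle cell markers, 4 lie in the highest 2% of levels. The median difference of the 8 ranged from -0.26 to -0.01 over 22 alternative settings.

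Smooth muscle contractile genes, which make up most of the vessel wall's machinery, stood slightly lower in P465L. Of 24 tested, 20 were lower and 4 higher, 0 were called, groups did not overlap for 10 lower members (41.7%), and the median was -0.16. Over all genes, 6.99% were lower without overlap. Acta2, smooth muscle actin, measured 17.05, 17.19 and 17.12 in littermates A, B and C and 16.93, 16.78 and 16.73 in P465L A, B and C (-0.30, SE 0.12, adjusted p = 0.646), while its other probe sets differed by 0.10 and -0.11. Myl9, the regulatory myosin light chain, measured 16.93, 16.86 and 16.88 against 16.68, 16.57 and 16.46 (-0.32, adjusted p = 0.646). Calponin, Cnn1, differed by -0.28 and transgelin, Tagln, by -0.24, both without overlap. The list also holds Ckm, which lies at -1.55 and is a marker of skeletal muscle.

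These genes are among the brightest on the array, and brightness moved with the same difference. Of the 222 genes in the highest 2% of levels, 89.2% were lower in P465L, 41.4% were lower without overlap and 0.450% were higher without overlap, with a median of -0.15. In the lower 50% of genes the median was 0.00 and 5.97% were lower without overlap. After quantile normalization, which gives all arrays the same distribution, the median of the brightest 2% was 0.01 and that of the smooth muscle contractile genes turned to 0.03. Of the 24 smooth muscle genes, 13 lay in the highest 2% of levels and 19 in the highest 10%, in which 14.5% of all genes were lower without overlap. The lipid lists did not turn: under quantile normalization the PPAR targets had a median of -0.53 and oxidative phosphorylation one of -0.18.

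**Figure D4:**
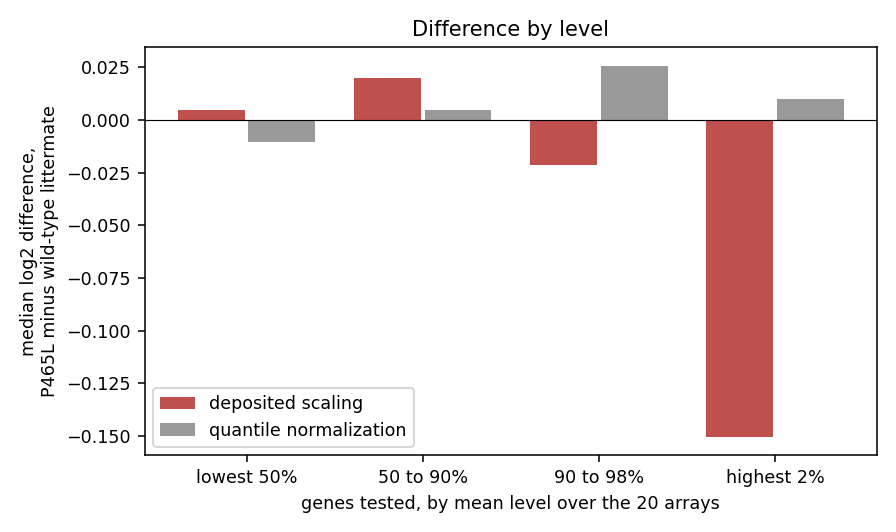
Median log2 difference (P465L minus wild-type littermate) of genes binned by their mean level over the 20 arrays, with the deposited scaling in red and after quantile normalization in grey. The brightest 2% of genes have a median of -0.15 with the deposited scaling and 0.01 after quantile normalization, and the other bins lie close to 0 under both.

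The endothelial markers differed in the same direction at moderate brightness. Of 17 tested, 15 were lower and 2 higher, 0 were called, 4 were lower without overlap (23.5%, against 6.99% of all genes), and the median was -0.14, staying between -0.19 and -0.11 in all 22 alternative settings. Nos3, the endothelial nitric oxide synthase that relaxes the vessel, measured 12.01, 11.82 and 11.67 in littermates A, B and C and 11.52, 11.25 and 11.33 in P465L A, B and C. Every P465L array was below every littermate array, by -0.47 on the mean (SE 0.14, adjusted p = 0.494). Tie1, an endothelial receptor kinase, measured 10.59, 10.50 and 10.65 against 10.31, 10.22 and 10.12 without overlap (-0.36, adjusted p = 0.676). Robo4, a guidance receptor of endothelium, differed by -0.55 (adjusted p = 0.650) without overlap, and Emcn, the sialomucin of veins and capillaries, by -0.32 (adjusted p = 0.676) with overlap.

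Genes of vasomotor and blood pressure signalling showed no common direction. Of 45 on the list, 35 were on the array and 27 were bright enough to test: 17 were higher, 10 were lower, 0 were called, and the median was 0.08. Groups did not overlap for 3 lower members (11.1%, against 6.99% of all genes) and 2 higher members (7.41%, against 7.35%). Nos3, described above, is also on this list and is 1 of the 3 lower members. Pde5a, the phosphodiesterase that breaks down cyclic GMP, measured 13.06, 13.03 and 13.22 in littermates and 13.23, 13.32 and 13.49 in P465L (0.24, adjusted p = 0.732). Its groups did not overlap and its 2 other probe sets differed by 0.33 and 0.22. Ptgis, the prostacyclin synthase, differed by -0.20 without overlap (adjusted p = 0.732). The natriuretic peptide clearance receptor Npr3 differed by -0.32 (adjusted p = 0.732) and the constrictor peptide endothelin, Edn1, by -0.18 (adjusted p = 0.809). The other probe sets of Npr3 differed by 0.084 and 0.14. Agt, angiotensinogen, was below the tested level, with signals of 43.0, 39.9 and 43.1 in littermates and 60.8, 93.6 and 31.6 in P465L.

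Antioxidant genes stood lower more often than higher, 18 against 6 of 24 tested, with a median of -0.12 and 0 called. This median was -0.069 without wild-type littermate B and -0.19 without P465L A. Sod3, the extracellular superoxide dismutase of the vessel wall, measured 15.20, 15.49 and 14.84 in littermates A, B and C and 14.88, 14.53 and 14.53 in P465L A, B and C, with slight overlap (-0.53, SE 0.17, adjusted p = 0.538). The other Sod3 probe set, also bright enough to test, differed by -0.15. Prdx2, a peroxiredoxin, measured 14.35, 14.76 and 14.06 against 14.09, 13.94 and 13.86 (-0.43, adjusted p = 0.494). Gpx1, a glutathione peroxidase, differed by -0.31 and the glutathione transferase Gsta3 by 0.56, with adjusted p-values of 0.649 and 0.650. Rac2, the small GTPase that activates the NADPH oxidase of leukocytes, measured 9.73, 9.52 and 9.82 against 10.62, 10.37 and 10.26 without overlap (0.72, SE 0.21, adjusted p = 0.494).

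In the matrix, abundant collagens and fibril proteins were slightly lower. Of 25 collagens and processing genes, 17 were lower and 8 higher, 6 were lower without overlap (24.0%), and the median was -0.06. Of 32 elastic fibre and matrix genes tested, 19 were lower and 13 higher, 6 were lower without overlap (18.8%), and the median was -0.04. Under quantile normalization these medians were 0.01 and 0.03, and 17 of the 25 and 16 of the 32 genes belong to the brightest 10% of levels, where 14.5% of all genes were lower without overlap. Postn, the matrix protein periostin, measured 16.15, 16.12 and 16.10 in littermates A, B and C and 15.86, 15.77 and 15.87 in P465L A, B and C (-0.29, SE 0.08, adjusted p = 0.452). Sparc differed by -0.31, Col1a2 by -0.24 and Col5a2 by -0.22 without overlap, and the elastic fibre proteins Mfap4 and Ltbp4 by -0.30 and -0.25. The other probe sets of Col1a2 differed by -0.15 and 0.30. Fbln1, fibulin 1, differed by -0.38 at its brightest probe set but by -0.05 and 0.04 at its others. Col15a1, a basement membrane collagen, was higher without overlap (0.34, adjusted p = 0.658).

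Inflammatory genes leaned the other way. Of 34 on the list, 22 were bright enough to test: 17 were higher in P465L and 5 lower, 0 were called, 6 were higher without overlap (27.3%, against 7.35% of all genes), and the median was 0.17. This median was 0.04 without wild-type littermate A, 0.25 without wild-type littermate C and 0.10 without P465L C. Socs3, the feedback inhibitor of cytokine signalling, measured 9.61, 9.85 and 9.59 in littermates A, B and C and 10.73, 10.04 and 10.27 in P465L A, B and C (0.66, SE 0.21, adjusted p = 0.505), and its other probe sets differed by 0.62 and -0.19. Selp, the adhesion molecule P-selectin, measured 10.23, 10.81 and 10.71 against 11.12, 10.98 and 11.14 (0.49, adjusted p = 0.646). Its 2 other probe sets, both below the tested level, differed by 0.10 and -0.38. The chemokines Ccl11 and Ccl5 differed by 0.48 and 0.90, with adjusted p-values of 0.646 and 0.661. Groups did not overlap for these 4 genes.

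Leukocyte markers moved beside them. All 6 genes of MHC class II tested were higher, with a median of 0.20, of which Cd74, the invariant chain, was without overlap (0.30, adjusted p = 0.710). Of 10 lymphocyte markers tested, 8 were higher, 3 of them without overlap (30.0%, against 7.35% of all genes), with a median of 0.33. Without wild-type littermate A this median was 0.19 and that of the MHC class II genes 0.066. Ighm, the heavy chain of IgM, measured 11.13, 12.21 and 11.23 against 13.57, 11.57 and 12.66 (1.08, adjusted p = 0.509), and Jchain, which joins secreted immunoglobulins, measured 8.18, 11.33 and 8.71 against 12.75, 9.43 and 11.11 (1.69, adjusted p = 0.649). In both, wild-type littermate B was above P465L B, and for Jchain also above P465L C. Other Ighm probe sets bright enough to test differed by 1.47 and -0.18. The B cell marker Ms4a1 differed by 0.61 and the leukocyte antigen Cd52 by 0.31 without overlap. Of 20 macrophage markers, 14 were higher and 6 lower with a median of 0.04. The part of leukocyte number in the inflammatory genes was not tested.

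The mutation was then set beside rosiglitazone, by testing for each gene whether the P465L effect differed from the average rosiglitazone effect. The 2 effects share no array, since littermates and chow controls are separate, although they come from separate sets of mice, and the littermates' strain is not stated. Of 11081 genes, 12 differed at an adjusted p under 0.05 (0.108%), and 1132 had an unadjusted p under 0.05 (10.2%). Of the 12, 10 were lower in P465L and higher with rosiglitazone, and 2, Cyp2f2 and Limd2, were the reverse. A test for a large difference favours genes with opposite directions, and of these 12 only Elovl3 passed the threshold for P465L alone.

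Cyp2f2, a cytochrome P450 enzyme, had the smallest adjusted p. It measured 9.78, 10.14 and 9.86 in littermates A, B and C and 11.84, 11.56 and 10.89 in P465L A, B and C, a difference of 1.50 without overlap (SE 0.30, adjusted p = 0.159). With rosiglitazone it fell by 1.32, so that the effects differed by 2.83 (SE 0.38, adjusted p = 0.00359). Its mean log2 level was 9.93 ± 0.19 (SD, n = 3) in littermates, 9.96 ± 0.30 (SD, n = 3) in chow controls, between 8.21 and 9.38 in the 4 rosiglitazone groups, and 11.43 ± 0.49 (SD, n = 3) in P465L. Littermates and chow controls differed by less than their spread, with the rosiglitazone groups below them and P465L above.

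Acaa1b and Elovl3 showed the opposite order. Acaa1b differed by -1.90 with P465L and rose by 2.00 with rosiglitazone, a difference of effects of -3.90 (SE 0.58, adjusted p = 0.00410). Its mean was 9.10 ± 0.83 (SD, n = 3) in P465L, 10.11 ± 0.62 (SD, n = 3) in chow controls, 11.00 ± 0.40 (SD, n = 3) in littermates and 11.64 to 12.83 in the rosiglitazone groups. P465L was the lowest of the 7 groups, and chow controls and littermates lay between it and the rosiglitazone groups. For Elovl3 the effects differed by -2.99 (SE 0.43, adjusted p = 0.00400), with means of 9.10 ± 0.63 (SD, n = 3) in P465L, 10.11 ± 0.40 (SD, n = 3) in chow controls, 10.36 to 11.10 in the rosiglitazone groups and 11.45 ± 0.65 (SD, n = 3) in littermates. Here the littermates, not the rosiglitazone groups, were highest.

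The 250 bases before the start of transcription of Acaa1b and Cyp2f2 are shown because these genes had the effects farthest apart in each direction among the genes with a promoter entry. PPARγ and RXR bind paired copies of the half-site AGGTCA, and capitals mark that half-site on either strand. The sequences are from RefSeq on GRCm38.p6, written 5′ to 3′ on the gene's strand, at chr9:119157094-119157343 (minus strand) and chr7:27119705-27119954 (plus strand).
Acaa1b: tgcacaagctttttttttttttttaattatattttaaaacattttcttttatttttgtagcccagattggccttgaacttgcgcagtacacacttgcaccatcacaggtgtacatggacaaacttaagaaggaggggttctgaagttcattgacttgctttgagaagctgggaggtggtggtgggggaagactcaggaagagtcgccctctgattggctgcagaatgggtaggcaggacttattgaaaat
Cyp2f2: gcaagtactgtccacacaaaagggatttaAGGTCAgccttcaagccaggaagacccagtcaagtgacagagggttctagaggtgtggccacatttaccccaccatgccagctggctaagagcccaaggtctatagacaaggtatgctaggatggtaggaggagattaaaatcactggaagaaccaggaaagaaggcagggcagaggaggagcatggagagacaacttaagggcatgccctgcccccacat
The Cyp2f2 window holds 1 half-site, whose first base lies 221 bases before the start, and the Acaa1b window holds 0. Of the 12 genes, 8 had entries with 12 start sites in all, and 2 of the 12 windows held AGGTCA on either strand (16.7%), against 14.0% of all 32851 windows. The paired site AGGTCANAGGTCA, which contains the half-site at both ends, was in 0 of the 12 windows and in 0.0335% of all, and its looser form AGGNCANAGGNCA in 0 of the 12 and in 0.338% of all. A match describes these letters only.

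The other genes whose effects differed include lipid and vascular genes. Btnl9, a butyrophilin-like protein, measured 9.67, 10.21 and 9.11 in littermates A, B and C and 8.89, 8.34 and 8.51 in P465L A, B and C (-1.08, adjusted p = 0.479), and rose by 1.43 with rosiglitazone (difference of effects, adjusted p = 0.00400). Its P465L mean of 8.58 was close to that of chow controls, 8.52, and the littermates, at 9.66, lay within the rosiglitazone groups at 9.47 to 10.55. Fabp4 differed by -0.65 with P465L and rose by 0.84 with rosiglitazone (adjusted p = 0.0281), again with P465L (16.12) near chow (16.01) and littermates (16.77) near the rosiglitazone groups (16.75 to 16.92). Ephx2, the soluble epoxide hydrolase, which clears vasodilator lipids, measured 12.61, 13.07 and 12.30 against 12.23, 11.89 and 11.60 without overlap (-0.75), and rose by 0.96 with rosiglitazone (adjusted p = 0.0412). Rbp7, a retinol-binding protein of endothelium and fat, differed by -0.81 and 1.97 (adjusted p = 0.0431), and Cmbl, a hydrolase, by -0.46 and 1.37 (adjusted p = 0.0452), both with overlapping P465L and littermate arrays.

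The remaining genes were smaller in effect. Fbxo36, an F-box protein, differed by -0.69 with P465L and 0.78 with rosiglitazone (adjusted p = 0.00410), Ranbp10 by -0.70 and 0.40 (adjusted p = 0.0412), and 4931406C07Rik, a hydrolase-like protein, by -0.62 and 0.80 (adjusted p = 0.0412). Limd2, a LIM domain protein, differed by 0.43 and -0.50 (adjusted p = 0.00593). The other bright probe sets of Fbxo36 and Ranbp10 differed by only -0.13 and -0.08 with P465L, whereas that of 4931406C07Rik differed by -0.58. Of these 12 genes, Acaa1b, Cyp2f2 and Elovl3 alone were still called with the mean of each gene's probe sets. The number of genes called moved from 12 to 51 without P465L A and to 20 without wild-type littermate C, to 7 without wild-type littermate A or P465L B, and to 6 without wild-type littermate B, P465L C or chow C.

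Genes called with rosiglitazone on its own did not share 1 direction in P465L. Of 26 genes that rosiglitazone raised (48 genes were called, 0.433% of those tested), 18 were lower and 8 higher in P465L with a median of -0.16, against a rosiglitazone median of 0.94. Groups did not overlap for 7 lower genes (against 6.99% of all genes) and 3 higher genes (against 7.35%), and for 8 the difference of effects was called (against 0.108%). Of 22 genes that rosiglitazone lowered, 12 were higher and 10 lower in P465L with a median of 0.01, against -0.53 with rosiglitazone, and for 2 the difference was called. Among these 22, groups did not overlap for 4 higher genes (against 7.35% of all genes) and 4 lower genes (against 6.99%). Because these genes were chosen for a rosiglitazone effect, the test of their difference is not independent of that choice. Map3k12, called in both comparisons, was higher in both, by 1.0 with P465L and 0.74 with rosiglitazone. Its littermate mean (10.48) was the lowest of the 7 groups. Chow controls had 11.13, P465L 11.49 and the rosiglitazone groups 11.61 to 12.12. Across all 11081 genes, which are not independent replicates, the effects had a Pearson correlation of -0.08 and a Spearman correlation of 0.00.

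**Figure D5:**
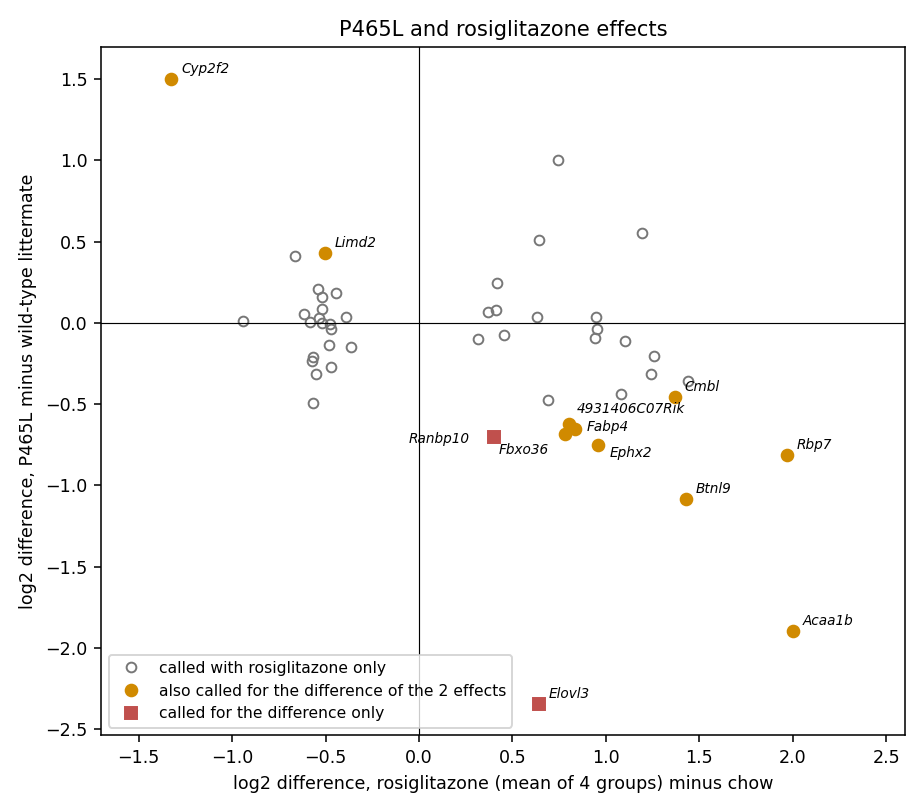
Log2 difference with P465L (minus wild-type littermates, vertical) against that with rosiglitazone (mean of 4 groups minus chow, horizontal) for the 48 genes called with rosiglitazone and the 12 genes whose effects differed. Cyp2f2 (-1.32 and 1.50) lies at the upper left and Acaa1b (2.00 and -1.90) at the lower right, and Elovl3 has the lowest P465L value (-2.35). The genes lowered by rosiglitazone lie on both sides of 0 with P465L (12 higher and 10 lower).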

How the data were processed

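Messenger RNA of pooled mouse aortas was measured on 20 Affymetrix arrays, 6 of them in the comparison of P465L with wild-type littermates. The deposited intensity values are linear probe set signals that the authors made with MAS5, per the submitters' processing notes; the sources used here give no version, detection calls or filters. The values show that each array was scaled to a 2% trimmed mean of about 1500, with no further adjustment between arrays, which leaves the brightest genes free to differ between arrays. Of 45101 probe sets, 34945 had a single gene symbol (18193 genes), 932 had several and 9160 had none. A gene took its brightest probe set by mean over all arrays and entered the test where this mean was at least the 50th percentile of probe sets (log2 8.73, signal 352), leaving 11081 genes. Signals were taken as log2 of the signal plus 72, which shrinks differences of dim genes.

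One limma 3.58.1 model (R 4.3.3) with a mean for each of the 7 groups was fitted to all 20 arrays (13 residual and 7.3 prior degrees of freedom, variance trend). Tests were two-sided with Benjamini-Hochberg adjustment over the genes tested, and called means an adjusted p under 0.05. The rosiglitazone effect is the mean of its 4 groups minus chow. SE and p come from this fit, SD from the arrays of a group. The script was tested on simulated data. The number of arrays limits the precision. The labels state no pairing of the replicate letters across groups, and no batch is labelled. Correlations of deviations were 0.08, -0.18 and 0.32 for the same letter and -0.40 to 0.30 for different letters. With 3 arrays a group these cannot decide whether the arrays were paired. Gene lists are described by counts and medians, with no test. Not every list is reported here. Genes named in the text were the calls with up to 10 genes a direction by smallest p, the 4 smallest p-values of each list, fixed vascular and PPAR genes, and the genes with the largest difference from rosiglitazone. The comparison, the lists and these rules were chosen with earlier results of these data known. Tables and figures used Python 3.11.15, pandas 2.3.3 and matplotlib 3.10.9.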

Additional observations from a re-analysis of the deposited data

How the results depend on the processing

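The 22 alternative settings changed 1 choice each, and the fit with the adipocyte score was added after the data were seen. For P465L against littermates limma called 2 genes. It called 1 with the mean of probe sets, with quantile normalization, without the variance trend and with the replicate block over all arrays, 4 with the adipocyte score and 6 with array weights. With only the 6 arrays it called 0 (1020 genes at an unadjusted p under 0.05), and a fit of those 6 with the replicate block called 2. Leaving out 1 array gave 0 to 3, with 0 without wild-type littermate B, P465L B or P465L C, 1 without wild-type littermates A or C or chow B, and 3 without P465L A or chow A. For the difference from rosiglitazone 12 genes were called, 6 with no filter on the level and with quantile normalization, 3 with the mean of probe sets, 7 with median centred arrays, 26 with the adipocyte score, 88 with array weights and 6 to 51 without 1 array; 10 were called with the replicate block. For rosiglitazone against chow 48 were called, 28 without the variance trend, 17 with median centring, 260 with array weights, 133 with the score and 1 to 53 without 1 array, the lowest being 3, 11 and 1 without chow A, B and C. Among probe sets without a single symbol 0 were called, 4 with median centred arrays, 10 with array weights and 0 to 6 without 1 array. Signs turned for Lpl (-0.42 to 0.20 without 1 array, 0.13 without wild-type littermate B and 0.20 without P465L C, and 0.23 with the adipocyte score), Pparg (-0.44 to 0.30 without 1 array, 0.12 without wild-type littermate A and 0.30 without P465L C, and 0.39 with the score), Pdk4 (0.037) and Angptl4 (0.056) with the score, Limd2 (-0.10) with the mean of probe sets, and Serpina1b (-0.090 to 0.21 without 1 array, -0.066 without wild-type littermate A and -0.090 without P465L A). The causes were not tested.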

Other observations

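Genes of the immediate early class, the first to be switched on after a stimulus, stood higher in P465L. Of 25 tested, 22 were higher and 3 lower, 0 were called, 7 were higher without overlap (28.0%, against 7.35% of all genes), and the median was 0.21, staying between 0.16 and 0.28 in 22 alternative settings. Nr4a3, an orphan nuclear receptor, measured 10.03, 9.90 and 9.64 in littermates A, B and C and 10.38, 10.77 and 10.61 in P465L A, B and C (0.73, SE 0.19, adjusted p = 0.452). Its 2 other probe sets, both below the tested level, differed by 0.28 and -0.89. Nr4a1, a relative of Nr4a3, measured 12.10, 12.08 and 11.78 against 12.72, 12.66 and 12.21 (0.54, adjusted p = 0.646). Ier5 differed by 0.33 without overlap and Fos by 0.59 with overlap. The other Ier5 probe set bright enough to test differed by 0.037, and a dimmer one by 0.62.

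Other gene groups differed little. The median was 0.01 over 26 genes of heat shock and the unfolded protein response, 0.06 over 19 circadian clock genes, 0.01 over 16 cell cycle genes, 0.09 over 21 Wnt modulators, -0.02 over 13 genes of the IGF system, 0.03 over 24 interferon response genes, -0.02 over 20 genes of cholesterol synthesis, -0.14 over 26 genes of glucose uptake and insulin signalling, -0.07 over 7 NADPH oxidase genes and 0.00 over 7 sex chromosome genes. Of the clock genes, Per1 differed by -0.36 (adjusted p = 0.673) and the output gene Dbp by -0.39 (adjusted p = 0.750), both without overlap, and the cell cycle inhibitor Cdkn1b by 0.44 (adjusted p = 0.538). Fibroblast and adventitial markers had a median of -0.06 over 13 genes, cardiac muscle markers -0.08 over 10, and nerve and Schwann cell markers -0.05 over 8.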
